A study of Homo sapiens with 6 samples.

Results

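UBFD1 lies on the short arm of human chromosome 16 in a dense row of genes, and it was examined here together with 6 of its neighbours, COG7, GGA2, EARS2, NDUFAB1, PALB2 and DCTN5. UBFD1 was chosen by its K29Q to WT difference in these same libraries, where it was 1 of the 7 genes past the threshold over all tested genes. The other 6 were selected by position, to see whether the difference was local. All 7 were found by symbol among the 60675 gene entries of the deposited table, and all 7 passed the filter on low values, which 13261 entries passed. Because UBFD1 was picked on this contrast, its values are given as a description without a test, while the neighbours were tested.

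HCT116, a long-established line of human colon cancer cells, was the source of all libraries. One group of cells stably expressed PHF5A carrying glutamine in place of lysine at residue 29 (K29Q, 3 libraries), and the other stably expressed wild-type PHF5A (WT, 3 libraries). PHF5A is a subunit of the SF3B complex, which recognises the intron branch site during splicing, and glutamine is often used to mimic acetylated lysine. The labels do not give the promoter of the transgene, the state of the endogenous gene, whether a line was a single clone, or whether libraries of a group were separate cultures, so p-values here reflect library-to-library spread alone, and that spread may be purely technical.

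The 7 genes have unrelated roles. UBFD1 codes for a protein with a ubiquitin-like domain, a fold that other proteins read as they read ubiquitin itself. NDUFAB1 is the mitochondrial acyl carrier protein and also a subunit of respiratory complex I, and EARS2 charges mitochondrial transfer RNA with glutamate. GGA2 is a clathrin adaptor of the trans-Golgi network, COG7 a subunit of the tethering complex that guides vesicles between Golgi cisternae, and DCTN5 a pointed-end subunit of dynactin, the activator of the dynein motor. PALB2 links BRCA1 to BRCA2 in homologous recombination.

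The members span 289 kb, from position 23388493 to 23677455 of chromosome 16 (GRCh38, GENCODE 29). UBFD1 (ENSG00000103353) runs on the plus strand from 23557362 to 23574389. EARS2 (ENSG00000103356) runs away from it on the minus strand from 23522014 to 23557731, so the first 370 bp of UBFD1 are annotated to both genes. On the other side NDUFAB1 (ENSG00000004779, minus strand, 23581002 to 23596356) ends 6613 bp after the last base of UBFD1. PALB2 (ENSG00000083093, minus strand, 23603160 to 23641310) and DCTN5 (ENSG00000166847, plus strand, 23641392 to 23677455) form a second pair of diverging genes, with 81 bp between them. GGA2 (ENSG00000103365, minus strand, 23463542 to 23521995) and COG7 (ENSG00000168434, minus strand, 23388493 to 23453180) lie beyond EARS2. All 7 code for protein.

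UBFD1 and EARS2 start from the same stretch of DNA in opposite directions, and short pieces of it are shown because the values of both genes are set side by side below. RefSeq (GRCh38.p14) places the start of UBFD1 at 23557727 and 1 start of EARS2 at 23557350, with 376 bases between them, and 124 bases belong to the 250 upstream bases of both. A second RefSeq start of EARS2 at 23557375 leaves 351 bases between the starts, and distances for EARS2 below are from the first. In GENCODE both genes reach past these RefSeq starts, so most of the bases between the starts are annotated to both genes. A motif before a RefSeq start can therefore lie inside the GENCODE gene. Promoters of 5 of the 7 members were found in the RefSeq table. A GC box (GGGCGG on either strand) lies in the shared part, 181 bases before the UBFD1 start and 201 before the EARS2 start, and 42.6% of all 35116 RefSeq promoters of this length hold one. Each gene also has its own CCAAT box (CCAAT on either strand, in 32.0% of promoters), 52 bases before the start in UBFD1 and 57 in EARS2. An E-box (CACGTG, in 6.34%) and an ETS-type motif (CGGAAG on either strand, in 16.5%) were found before EARS2, the E-box before the start at 23557350 and not before that at 23557375, and these letters were not found in the 250 bases before UBFD1. Such matches describe letters only and do not show that a factor binds. The windows of 30 bases follow, 5′ to 3′ on the strand of the gene named, with the motif in capitals.
UBFD1 GC box, chr16:23557534-23557563, plus strand: tatttcccggacCCGCCCccttcagcttgg
EARS2 GC box, the same bases on the minus strand: ccaagctgaaggGGGCGGgtccgggaaata
UBFD1 CCAAT box, chr16:23557663-23557692, plus strand: ctgctgcgggggCCAATctcagccagctcg
EARS2 CCAAT box, chr16:23557390-23557419, minus strand: tggcggaggccgATTGGctggaagcagtcc
EARS2 E-box, chr16:23557351-23557380, minus strand: acgcagggagaagccCACGTGtgctattcc

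Expression was given as FPKM, fragments scaled to transcript length and to the mapped fragments of the library. By an estimate from steps in the values of single-exon genes, libraries held 33.5 to 39.8 M fragments (M, mega). PHF5A had 41.4, 45.9 and 45.0 FPKM in K29Q 1 to 3, against 32.4, 34.4 and 32.7 FPKM in WT 1 to 3, with a log2 difference of 0.40 that did not pass the threshold used below (limma, adjusted p = 0.11) but passed it at 0.44 once GC content and length were corrected for (adjusted p = 0.0168). This total adds any endogenous to the introduced RNA and does not tell mutant from wild-type. Of 6 colon epithelium markers, 5 had at least 1 FPKM in every library (EPCAM, KRT8, KRT18, KRT19 and CDX2) and CDX1 was at or near 0; the summed level was 1130 to 1190 FPKM in K29Q and 1230 to 1380 FPKM in WT. Of 9 leukocyte, fibroblast and endothelium markers only CD68 reached 1 FPKM in every library, DCN was listed at 0 throughout, and the sum was 1.97 to 2.28 FPKM in K29Q and 2.15 to 2.58 FPKM in WT. In a principal component analysis WT 1 stood with the K29Q libraries: scores on component 1, which held 34.1% of variance, were −4.76, −6.81 and −14.9 in K29Q 1 to 3 and −4.72, 13.2 and 18.0 in WT 1 to 3. The column headers carry 1 of 2 codes that look like flow cell names, though no source says so, and these are called run A for K29Q 1, K29Q 2 and WT 2, and run B for K29Q 3, WT 1 and WT 3.

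UBFD1 was higher in K29Q cells than in WT cells in every library. It had 12.3, 12.7 and 13.2 FPKM in K29Q 1 to 3, against 5.47, 5.35 and 4.75 FPKM in WT 1 to 3. The groups did not overlap, and WT 1, which stood apart from the other WT libraries over all genes, lay with them for UBFD1. The mean was 12.7 ± 0.498 FPKM in K29Q and 5.19 ± 0.389 FPKM in WT (SD, n = 3 each), a ratio of 2.45, and the log2(FPKM + 1) difference was 1.15. This difference ranked 18 in size among the 13261 tested entries. Run A alone gave 1.09 and run B alone 1.22, and it was 1.18 without WT 1 and between 1.10 and 1.18 whichever library was left out. In bulk libraries a larger share of cells with UBFD1 RNA and more of it per cell cannot be told apart.

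The estimate of depth gives an idea of the reads behind these values. If the longest annotated transcript of 5110 nt applied, UBFD1 would have had about 2200, 2600 and 2300 fragments in K29Q 1 to 3 and about 1000, 1000 and 870 in WT 1 to 3. GENCODE lists 10 transcripts of UBFD1, 3 of them protein-coding, from 577 to 5110 nt long. A gene value of FPKM does not tell which of these the fragments were assigned to, and the same number of fragments gives a higher FPKM on a shorter transcript. UBFD1P1, a processed pseudogene of UBFD1 on chromosome 3, was listed at 0 in all 6 libraries.

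**Figure D1:**
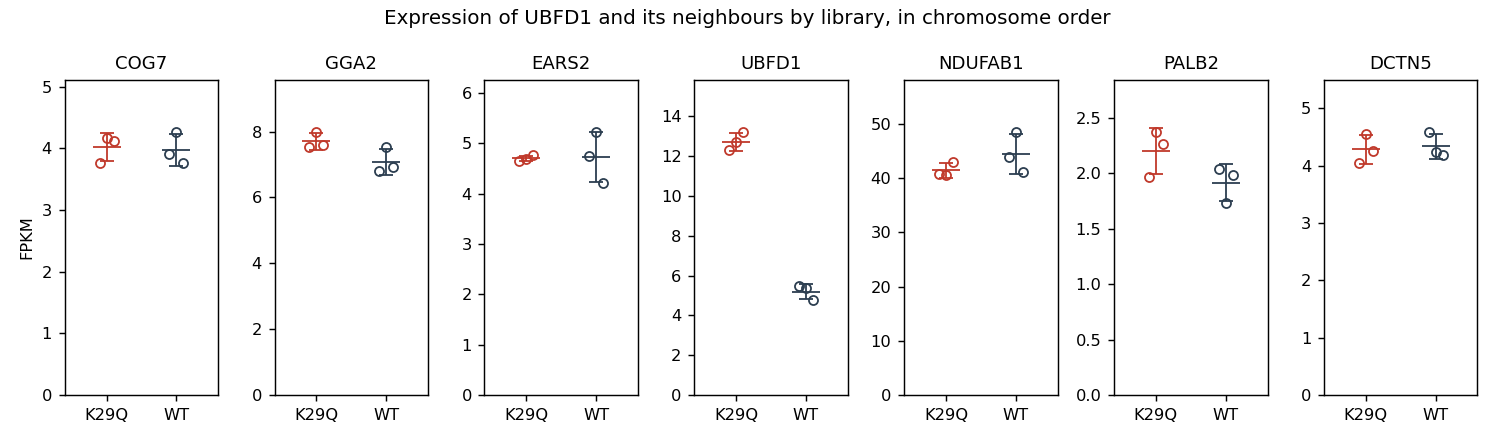
FPKM of the 7 genes in each library, one panel per gene in chromosome order, with K29Q left of WT, open circles for libraries, and the mean with its SD as bars (n = 3 each). Each axis starts at 0 and has its own scale. UBFD1 is the panel in which the groups are widely separated, at 12.3 to 13.2 FPKM in K29Q and 4.75 to 5.47 FPKM in WT.

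None of the 6 neighbours passed the threshold of an adjusted p of 0.05 (limma, Benjamini-Hochberg adjustment over all tested genes), where 7 of 13261 genes did (0.0528%). At an unadjusted p under 0.05 the count was 0 of 6 as well, against 12.5% of all tested genes. Above 0 lay 3 of the 6 and below it 3, and their median log2 difference was 0.0034 beside 0.003 over all genes. On the log2(FPKM + 1) scale, which shrinks low genes, their 95% confidence intervals reached from −0.27 to 0.33 at most. With a pseudocount of 0.1 PALB2 was at 0.19 (SE 0.12), so its interval is wider there. The groups did not overlap for 1 of the 6 (GGA2), where 17.8% of all tested genes showed no overlap. Without WT 1, 0 of the 6 passed the threshold as well.

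EARS2, which shares the divergent start with UBFD1, showed no difference beyond the spread between libraries. It had 4.65, 4.69 and 4.76 FPKM in K29Q 1 to 3, against 4.74, 5.22 and 4.22 FPKM in WT 1 to 3. The K29Q libraries lay inside the range of the WT libraries. The mean was 4.70 ± 0.0570 FPKM in K29Q and 4.73 ± 0.498 FPKM in WT, and the log2 difference was −0.0045 (SE 0.078, 95% confidence interval −0.19 to 0.18, limma, adjusted p = 0.986). It was −0.13 in run A and 0.072 in run B. Since the strand option is not given, fragments from the 370 bp that both genes cover cannot be assigned to one of them with certainty.

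NDUFAB1, the next gene on the other side, was the most abundant of the 7. It had 40.8, 40.6 and 43.1 FPKM in K29Q 1 to 3, against 43.9, 48.5 and 41.2 FPKM in WT 1 to 3. The groups overlapped, and WT 2 was the highest library. The log2 difference was −0.10 (SE 0.074, 95% confidence interval −0.27 to 0.08, limma, adjusted p = 0.602). Split by run it was −0.25 in A and 0.019 in B. NDUFAB1P1, its processed pseudogene on chromosome 6, was listed at no more than 0.183 FPKM in any library.

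PALB2 was the least abundant member. It had 1.97, 2.37 and 2.26 FPKM in K29Q 1 to 3, against 2.04, 1.73 and 1.98 FPKM in WT 1 to 3, with an overlap between K29Q 1 and WT libraries 1 and 3. Its log2 difference was 0.13 (SE 0.082, 95% confidence interval −0.059 to 0.33, limma, adjusted p = 0.524), and it was 0.21 in run A and 0.12 in run B. DCTN5, which diverges from PALB2, had 4.04, 4.55 and 4.25 FPKM in K29Q 1 to 3, against 4.58, 4.24 and 4.18 FPKM in WT 1 to 3. Both groups covered nearly the same range, and the log2 difference was −0.016 (SE 0.069, 95% confidence interval −0.18 to 0.15, limma, adjusted p = 0.939; run A 0.012, run B −0.034).

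GGA2 and COG7 serve Golgi traffic and lie on the EARS2 side. GGA2 had 7.53, 7.98 and 7.59 FPKM in K29Q 1 to 3, against 6.79, 7.52 and 6.92 FPKM in WT 1 to 3. The groups were separated by the small step between K29Q 1 and WT 2. Its log2 difference was 0.11 (SE 0.065, 95% confidence interval −0.045 to 0.26, limma, adjusted p = 0.516), with 0.038 in run A and 0.13 in run B. COG7 had 3.76, 4.17 and 4.12 FPKM in K29Q 1 to 3, against 3.91, 4.26 and 3.76 FPKM in WT 1 to 3, and the groups overlapped. The log2 difference was 0.011 (SE 0.071, 95% confidence interval −0.16 to 0.18, limma, adjusted p = 0.959; run A −0.084, run B 0.082).

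In level, which FPKM compares per length, NDUFAB1 stood far above the rest in both groups. In K29Q cells UBFD1 came second, then GGA2, EARS2, DCTN5, COG7 and PALB2. In WT cells GGA2 came second with 7.08 ± 0.392 FPKM, and UBFD1 at 5.19 ± 0.389 FPKM was next to EARS2 at 4.73 ± 0.498 FPKM. The ranges of UBFD1 and EARS2 overlapped in WT, though UBFD1 was higher in each WT library. In K29Q cells COG7 was at 4.02 ± 0.223 FPKM and DCTN5 at 4.28 ± 0.258 FPKM. Their ranges overlapped as well, though DCTN5 was higher in each K29Q library. The coefficient of variation between libraries of a group ran from 1.21% (EARS2) to 9.50% (PALB2) in K29Q and from 4.97% (DCTN5) to 10.5% (EARS2) in WT.

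**Figure D2:**
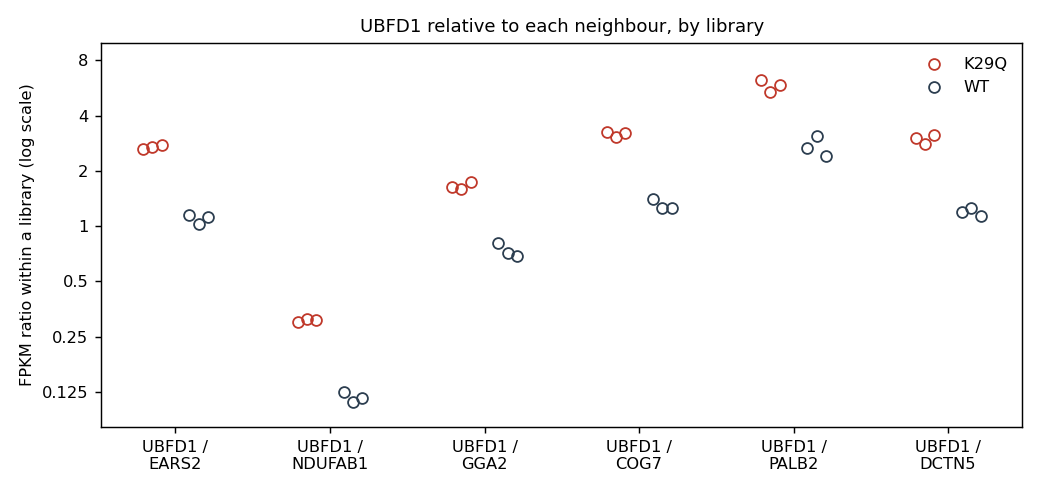
FPKM of UBFD1 divided by that of each neighbour in the same library, on a log scale, with K29Q left of WT and 1 circle per library. Every K29Q ratio lies above every WT ratio for all 6 neighbours, for example 2.64 to 2.78 in K29Q and 1.03 to 1.15 in WT for EARS2.

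A ratio within a library does not depend on how the library was scaled. UBFD1 relative to EARS2 was 2.64, 2.71 and 2.78 in K29Q 1 to 3, against 1.15, 1.03 and 1.12 in WT 1 to 3. Relative to NDUFAB1 it was 0.300, 0.313 and 0.308 in K29Q 1 to 3, against 0.125, 0.110 and 0.115 in WT 1 to 3. Over the 6 neighbours the mean ratio in K29Q was 2.13 times (PALB2) to 2.63 times (NDUFAB1) that in WT. The summed FPKM of the 6 neighbours was 62.7, 64.4 and 66.0 in K29Q 1 to 3, against 65.9, 71.4 and 62.2 in WT 1 to 3, so the groups overlapped. These ratios carry the UBFD1 values that chose the gene and are a description.

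The window was then widened by position to every gene within 1 Mb of UBFD1. It held 44 other entries of the table with a position in GENCODE 29, of which 11 passed the filter, the 6 neighbours and 5 more. None of the 11 passed the threshold (limma, smallest adjusted p = 0.378), where 0.0528% of all tested genes did. Of the 11, 1 reached an unadjusted p under 0.05 (12.5% of all tested genes did), and 2 showed no overlap between the groups (17.8% of all did). Of the 33 entries that were not tested, 15 were listed at 0 in all libraries, and no value of the others was above 0.603 FPKM. Among these were the epithelial sodium channel subunits SCNN1B and SCNN1G, the kinase PRKCB and the stress sensor ERN2.

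Inside UBFD1 itself lies CTD-2196E14.6 (ENSG00000260751, plus strand, 23568673 to 23569696), a sense-intronic model of 1024 bp that overlaps 0 annotated exons of UBFD1. It had 1.11, 0.833 and 1.39 FPKM in K29Q 1 to 3, against 1.32, 1.34 and 1.47 FPKM in WT 1 to 3. The groups overlapped, and the highest value was in WT 3. The log2 difference was −0.18 (SE 0.11, 95% confidence interval −0.43 to 0.074, limma, adjusted p = 0.515), at −0.25 in run A and −0.0029 in run B. UBFD1 was at 1.15, the difference it was chosen for. The scale of log2(FPKM + 1) shrinks differences near 1 FPKM more than those at the level of UBFD1, and the difference between both entries was not tested. With values near 1 FPKM over 1024 bp CTD-2196E14.6 rests on few fragments.

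RBBP6, a ubiquitin ligase that binds RB1 and p53 and has a ubiquitin-like domain of its own, lies 963 kb from UBFD1 at the edge of the window. It had 7.52, 6.49 and 7.75 FPKM in K29Q 1 to 3, against 6.39, 4.61 and 5.79 FPKM in WT 1 to 3. The groups did not overlap, though K29Q 2 and WT 1 were close. The log2 difference was 0.33 (SE 0.12, 95% confidence interval 0.055 to 0.61), short of the threshold (limma, adjusted p = 0.378), and was 0.51 in run A and 0.31 in run B. PLK1, the mitotic kinase that starts 200 bp after DCTN5 ends, had 24.2, 23.1 and 23.1 FPKM in K29Q 1 to 3, against 23.6, 24.3 and 26.2 FPKM in WT 1 to 3, and a log2 difference of −0.07 (adjusted p = 0.655). The deubiquitinase USP31 had 2.61 ± 0.197 FPKM in K29Q and 2.66 ± 0.217 FPKM in WT, a log2 difference of −0.017. The long noncoding RNA CTD-2270L9.4 had 2.26 ± 0.295 FPKM in K29Q and 2.21 ± 0.0865 FPKM in WT, a log2 difference of 0.019.

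**Figure D3:**
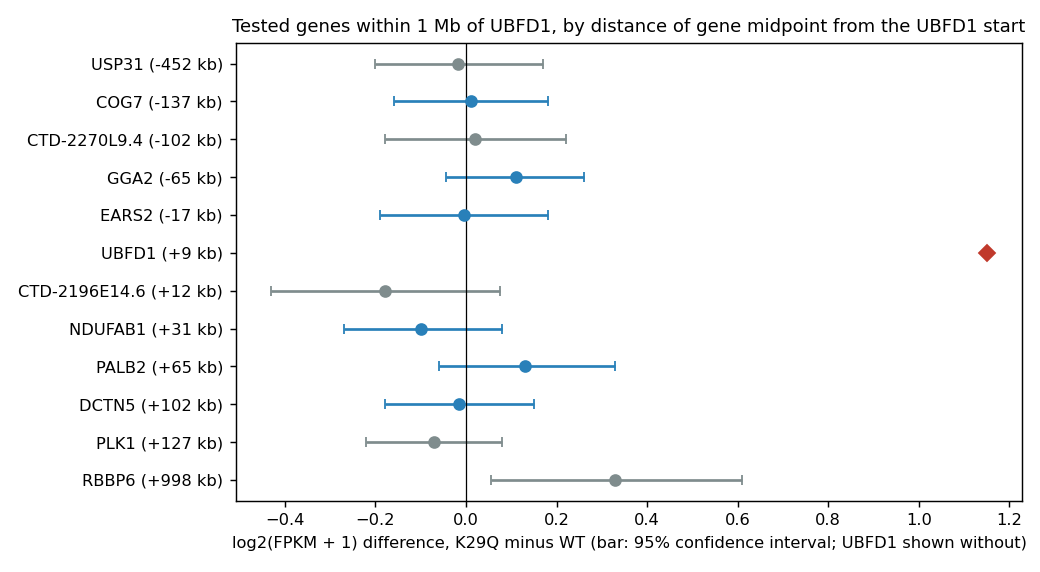
Difference in log2(FPKM + 1), K29Q minus WT, of the tested genes within 1 Mb of UBFD1, in chromosome order with the distance of each gene's midpoint from the UBFD1 start in kb. Blue points are the 6 neighbours and grey points other genes, with 95% confidence intervals; UBFD1 (red, no interval) is at 1.15 and the other 11 lie between −0.18 and 0.33.

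Along the whole of chromosome 16, 692 entries other than UBFD1 were tested, and 0 passed the threshold (limma). Over all tested genes 7 of 13261 did (0.0528%), so a count of 0 is near that share and says little about the chromosome. The 53 genes 1 to 5 Mb from UBFD1 had a median log2 difference of −0.022 and lay between −0.23 and 0.34, with 6 at an unadjusted p under 0.05. The 628 genes farther away had a median of −0.027 and lay between −0.81 and 0.59, with 55 at an unadjusted p under 0.05, where 12.5% of all tested genes reached it. On the log2(FPKM + 1) scale no other tested gene of the chromosome was as far above 0 as UBFD1. Because UBFD1 was chosen for this difference, its place at the top follows largely from the choice and is a description.

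**Figure D4:**
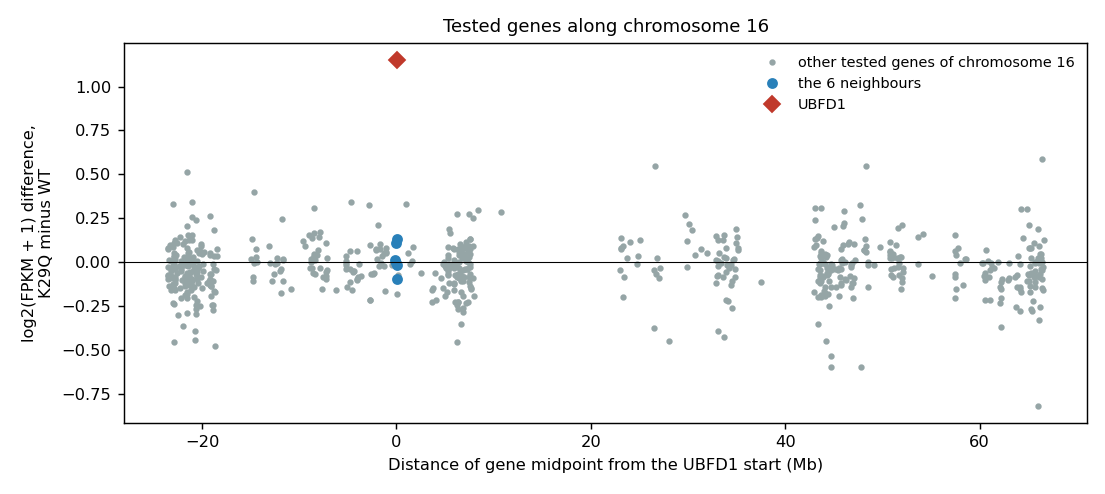
Difference in log2(FPKM + 1), K29Q minus WT, of the 693 tested entries of chromosome 16 against the distance of the gene midpoint from the UBFD1 start in Mb. UBFD1 (red diamond), which was chosen for this difference, is at 1.15. The 6 neighbours (blue) lie between −0.10 and 0.13, and all other genes (grey) lie between −0.81 and 0.59.

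The tested genes whose pattern over the libraries was most like that of UBFD1 were looked up by a measure of likeness, the root mean square difference between the mean-centred log2(FPKM + 1) values over the 6 libraries. Among entries whose ID carries the official symbol, the 4 nearest to UBFD1 were IFIH1 (0.191), IFIT1 (0.197), SLC5A3 (0.199) and INSIG1 (0.207). The 6 neighbours were at 0.517 (PALB2) to 0.626 (NDUFAB1), and 17.9% of the other tested entries lay nearer to UBFD1 than PALB2 and 71.5% nearer than NDUFAB1. One entry outside the official IDs was nearer than all 4, at 0.156: ENSG00000282827, labelled ATRIP, had 1.84, 1.66 and 1.63 FPKM in K29Q 1 to 3, against 0.145, 0.146 and 0.380 FPKM in WT 1 to 3. The entry with the official ID of ATRIP, a partner of the checkpoint kinase ATR, differed the other way, with 1.16, 1.98 and 1.81 FPKM in K29Q 1 to 3, against 4.74, 5.77 and 5.07 FPKM in WT 1 to 3. How fragments were divided between both entries was not tested. IFIH1, a sensor of double-stranded RNA on chromosome 2, had 3.37, 3.15 and 3.41 FPKM in K29Q 1 to 3, against 1.75, 1.52 and 1.26 FPKM in WT 1 to 3. IFIT1, an interferon-induced RNA-binding protein on chromosome 10, had 8.41, 9.16 and 9.30 FPKM in K29Q 1 to 3, against 5.42, 4.91 and 4.31 FPKM in WT 1 to 3. In SLC5A3, the myo-inositol transporter on chromosome 21, the WT libraries were less even, with 9.58, 9.50 and 10.6 FPKM in K29Q 1 to 3, against 6.31, 3.87 and 4.29 FPKM in WT 1 to 3. INSIG1, which holds the sterol sensor complex in the endoplasmic reticulum and lies on chromosome 7, had 14.7, 16.3 and 18.6 FPKM in K29Q 1 to 3, against 9.74, 9.41 and 8.87 FPKM in WT 1 to 3. For all 4 the groups did not overlap, where 17.8% of all tested genes showed no overlap, and this follows largely from their likeness to UBFD1. The 4 were picked for their likeness to a gene chosen on this contrast, so no test is given. Distances of the 6 neighbours rest on the same UBFD1 values. They largely restate the log2 differences given above and are not separate evidence.

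The partners of the 7 proteins were described through 9 lists, whose 170 genes are all in the table and of which 167 were tested. None passed the threshold (limma, smallest adjusted p = 0.19), where 0.0528% of all tested genes did. An unadjusted p under 0.05 was reached by 16, where 12.5% of all tested genes reached it. These 16 were 4 complex I subunits, 4 of the COG and tether list, 2 each of the ubiquitin-like, LYR, adaptor and PALB2 lists, and none of the other lists. Above 0 lay 54 of the 167 and below it 113, and their median log2 difference was −0.04, where 6759 of all tested genes lay above 0 and 6502 below. The groups did not overlap for 26 of the 167, where 17.8% of all tested genes showed no overlap. Genes named below are the 2 with the smallest p in each list, so separate groups in them follow largely from that pick.

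Of 19 other proteins with a ubiquitin-like domain, the feature that UBFD1 shares, 5 lay above 0 and 14 below, and the median was −0.043. UBL4A, which helps insert tail-anchored proteins into membranes, had 14.5 ± 0.913 FPKM in K29Q and 16.6 ± 0.257 FPKM in WT (SD, n = 3 each), a log2 difference of −0.18 (limma, adjusted p = 0.382). UBLCP1, a phosphatase of the nuclear proteasome, had 10.8 ± 0.960 FPKM in K29Q and 8.66 ± 1.54 FPKM in WT, a log2 difference of 0.30 (adjusted p = 0.394).

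NDUFAB1 carries the growing chain in mitochondrial fatty acid synthesis, anchors LYR-motif proteins and sits in complex I. The synthesis list had 4 of 10 members above 0 and a median of −0.033. In it AASDHPPT, which attaches the prosthetic group that acyl carriers need, had 5.14 ± 0.160 FPKM in K29Q and 4.38 ± 0.654 FPKM in WT, a log2 difference of 0.20 that was 0.0082 once GC content and length were corrected for. In the same list HSD17B8 had 4.76 ± 0.681 FPKM in K29Q and 5.60 ± 0.314 FPKM in WT. Of 17 tested LYR partners and iron-sulfur assembly genes, 3 lay above 0 and 14 below, with a median of −0.068. The complex I subunit NDUFB9 had 29.1, 28.9 and 27.7 FPKM in K29Q 1 to 3, against 40.9, 31.6 and 43.1 FPKM in WT 1 to 3 (log2 difference −0.41, limma, adjusted p = 0.331), with −0.12 in run A and −0.58 in run B. C7orf55, the table's entry for the ATP synthase assembly factor FMC1, had 6.95 ± 0.483 FPKM in K29Q and 7.90 ± 0.212 FPKM in WT. Of 34 other nuclear-encoded complex I subunits, without the LYR proteins NDUFA6 and NDUFB9, 5 lay above 0 and 29 below, with a median of −0.073, beside −0.10 for NDUFAB1. NDUFB10 had 42.2 ± 2.35 FPKM in K29Q and 48.6 ± 2.79 FPKM in WT, and NDUFC2 had 32.5 ± 1.45 FPKM in K29Q and 37.3 ± 2.48 FPKM in WT (limma, adjusted p = 0.378 and 0.388).

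The list that belongs to EARS2, the other mitochondrial aminoacyl-tRNA synthetases and the amidotransferase that makes glutaminyl-tRNA, had 7 of 21 members above 0 and a median of −0.033. PARS2 for proline had 5.29 ± 0.0526 FPKM in K29Q and 6.05 ± 0.580 FPKM in WT, and AARS2 for alanine had 5.34 ± 0.0784 FPKM in K29Q and 6.06 ± 0.531 FPKM in WT (limma, adjusted p = 0.426 and 0.438). In both, as in EARS2, the K29Q libraries were more even than the WT libraries. This was not particular to the list. The coefficient of variation of CAPZA2, from another list, was 1.69% in K29Q and 15.2% in WT. STX5 went the other way, with 18.3% in K29Q and 5.88% in WT.

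Golgi traffic gave differences in both directions. Of 18 trans-Golgi clathrin adaptor genes, 7 lay above 0 and 11 below, with a median of −0.035. AP1S3, a small subunit of the AP-1 adaptor, had 19.7 ± 0.991 FPKM in K29Q and 17.1 ± 1.24 FPKM in WT, and AP1B1, a large subunit of the same adaptor, had 16.2 ± 0.600 FPKM in K29Q and 18.7 ± 1.49 FPKM in WT (limma, adjusted p = 0.389 for each). The COG complex and Golgi tethers had 6 of 15 members above 0 and a median of −0.021. STX5, the Golgi SNARE of incoming vesicles, had 12.0, 9.02 and 13.0 FPKM in K29Q 1 to 3, against 6.73, 7.42 and 6.69 FPKM in WT 1 to 3. Its groups did not overlap, as in 4 of the 15 list members and 17.8% of all tested genes. Its log2 difference of 0.62 (SE 0.13) did not pass the threshold (limma, adjusted p = 0.19; run A 0.44, run B 0.86). COG4, which sits in the COG complex with COG7 and whose gene is also on chromosome 16, had 7.81, 8.36 and 8.31 FPKM in K29Q 1 to 3, against 9.51, 9.79 and 9.32 FPKM in WT 1 to 3. Here K29Q was lower in every library, with a log2 difference of −0.20 (SE 0.059, limma, adjusted p = 0.345).

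PALB2 partners in homologous recombination had 9 of 15 tested members above 0, with a median of 0.027. BRCA2, which PALB2 binds, had 2.54, 1.82 and 2.45 FPKM in K29Q 1 to 3, against 1.79, 1.33 and 1.26 FPKM in WT 1 to 3, with no overlap (log2 difference 0.41, limma, adjusted p = 0.348). Groups without overlap were found for 2 of the 15 list members and for 17.8% of all tested genes. BRIP1, a helicase that binds BRCA1, had 4.95 ± 0.204 FPKM in K29Q and 3.74 ± 0.851 FPKM in WT, with an overlap through WT 1. With GC content and length corrected for, the log2 difference was 0.20 for BRCA2 and 0.17 for BRIP1, whose longest transcripts have a GC content of 36.3% and 37.5%. Genes of other lists moved too. UBLCP1 went from 0.30 to 0.17 and CAPZA2 from 0.22 to 0.10. Farther from 0 went STX5, from 0.62 to 0.68, and DCTN6, from −0.18 to −0.29. The counts above and below 0 in each list are without this correction. Of 18 dynactin and dynein genes, 8 lay above 0 and 10 below, with a median of −0.013. DCTN6, which sits beside DCTN5 at the pointed end of dynactin, had 15.2 ± 0.395 FPKM in K29Q and 17.4 ± 1.62 FPKM in WT, and CAPZA2, an actin-capping subunit, had 8.89 ± 0.150 FPKM in K29Q and 7.55 ± 1.15 FPKM in WT (limma, adjusted p = 0.408 and 0.422).

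**Figure D5:**
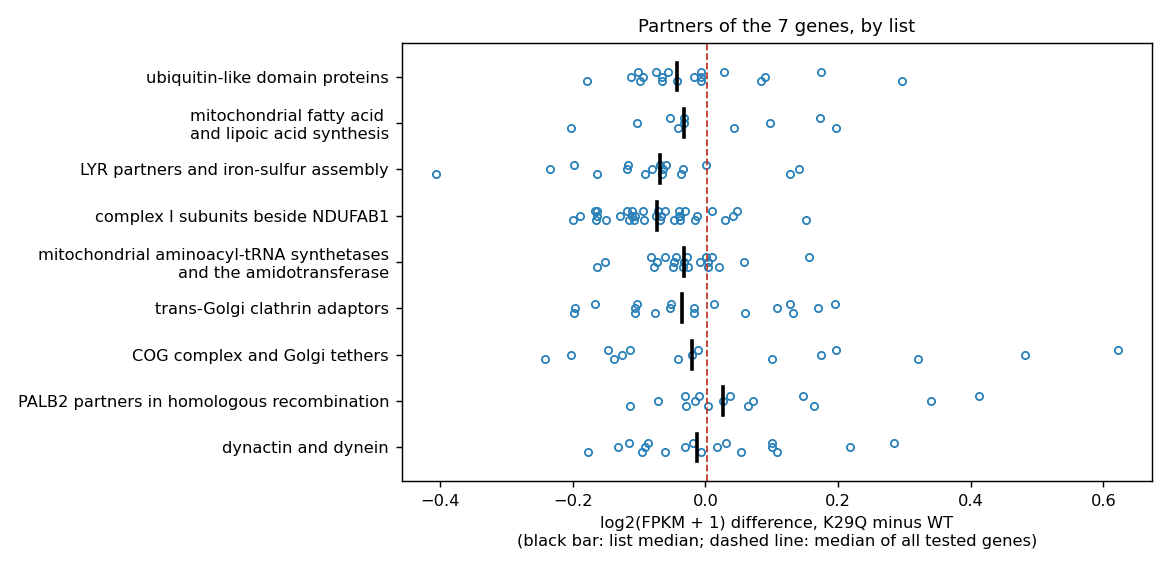
Difference in log2(FPKM + 1), K29Q minus WT, of the 167 tested partner genes in 9 lists, 1 circle per gene, with the list median as a black bar and the median of all tested genes (0.003) as a dashed line. The list medians lie between −0.073 and 0.027, and single genes between −0.41 (NDUFB9) and 0.62 (STX5).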

How the data were processed

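Per the file headers, the deposited table holds FPKM, with 1 value for each gene in each library. The authors aligned reads to GRCh38 with HISAT2 2.1.0 and StringTie made the values, according to the submitters' processing notes. Which annotation release, settings and strand option they used is not given in the sources used here. FPKM values are not counts, so no count test was run. Positions, transcripts and GC content came from GENCODE 29 by gene ID (57055 of 60675 found). The filter asked for at least 1 FPKM in 3 or more libraries. limma 3.58.1 (R 4.3.3) was then run on log2(FPKM + 1) of all genes left, with an intensity trend and no covariate beside the group. Every adjusted p is from this fit with Benjamini-Hochberg adjustment, with a threshold of 0.05. The log2 differences and their SE are on this scale, which understates the change of low genes. Depth was estimated from single-exon genes over 600 nt, taking 1 step in FPKM times length as 1 fragment; approximate fragments cover counting only.

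The members and lists were chosen with earlier results of these data known. Named genes were the members, PHF5A, tested genes within 1 Mb of UBFD1 and called genes of chromosome 16, the 4 entries closest to UBFD1 in pattern among IDs that carry the official symbol, and the 2 smallest p of each list; markers were listed separately, and UBFD1P1, NDUFAB1P1, both ATRIP entries and untested genes of the window were named after their values were seen. Alternatives were quantile normalization, no filter, a pseudocount of 0.1, a filter at mean FPKM 5, a replicate block, a run term (2 codes in the column headers), correction for GC content and length, and leaving out each library.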

Additional observations from a re-analysis of the deposited data

How the results depend on the processing

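The count of neighbours past the threshold stayed at 0 under all 13 alternatives, and so did those of other genes within 1 Mb and of the partner lists; at a mean FPKM of at least 5 only GGA2 and NDUFAB1 of the neighbours were tested. The log2 difference of UBFD1 was 1.28 with a pseudocount of 0.1 and lay between 1.14 and 1.16 under the other alternatives with all libraries. The count over all genes, 7 as reported, was 13 with quantile normalization, 2 with no filter on low values, 3 with the replicate block, 4 with a run term and 81 after GC content and length correction. It ran from 5 to 20 with 1 library left out, at 20 without WT 1 and 12 without K29Q 1. UBFD1 was among these genes under every alternative except the replicate block. Because it was chosen on this contrast in the same libraries, this is a description and not a test of UBFD1. The causes of these changes were not tested. Differences near 0 changed sign. EARS2 was at 0.020 after GC content and length correction, and COG7 at −0.023 with quantile normalization and −0.0014 with a run term. With 1 library left out EARS2 ran from −0.069 to 0.057, COG7 from −0.020 to 0.052 and DCTN5 from −0.052 to 0.018. DCTN5 and COG7 also moved after GC content and length correction, to −0.079 and 0.049. NDUFAB1 and PALB2 kept their sign but moved by over 1.5 times: NDUFAB1 ran from −0.15 to −0.034 (lowest in size without WT 2) and was −0.051 with quantile normalization and −0.059 after GC content and length correction, and PALB2 ran from 0.086 (without WT 2) to 0.19 and was 0.069 after that correction. The replicate numbers gave no clear sign of pairing: the correlation of deviations from the group mean was −0.14, 0.179 and −0.165 for numbers 1 to 3. Unlike numbers gave −0.115 to 0.247. With 3 libraries per group such correlations cannot exclude a paired design. Low levels limit PALB2, at about 260 to 380 fragments per library by the estimate above, and more so CTD-2196E14.6.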
